A study of Mus musculus with 12 samples.

Results

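Solute carriers are membrane proteins that move amino acids, sugars, ions, metals, vitamins, organic acids and fatty acids across the cell surface or across the membranes of mitochondria and other organelles. In the liver they take up nutrients and bile constituents from the blood, return glucose and amino acids to it, and pass metabolites between the cytosol and the mitochondrial matrix. The mRNAs described here were chosen by symbol and by mean raw counts: protein-coding genes whose symbol starts with Slc and a digit and whose mean was at least 10 counts over the 12 libraries. Of 375 such symbols, 241 had a lower mean, 8 were left out by name (Slc1a2, Slc2a2, Slc10a1, Slc25a13, Slc25a15, Slc25a20, Slc27a5 and Slc40a1), and 126 remained of 27179 gene entries in all. The nearest genes below the limit were Slc35c2, Slc6a8 and Slc39a11, with means of 9.83, 9.42 and 8.92 counts, and Slc45a4, Slc38a9 and Slc39a13 lay just above it, each at 10.1 counts. All 126 also passed the filter on low counts used for testing, which left 10555 genes. Apart from the symbol and the 8 names left out, the rule used only the mean over all libraries. That mean does not use the contrasts between pools and diets, but the members were chosen with earlier results of these data known. Of the 126, 4 bear a family symbol without being carriers: Slc9a3r1 and Slc9a3r2 encode scaffold proteins, and Slc4a1ap and Slc7a6os are named after a partner or a neighbouring gene.

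The study separated liver extracts of male C57BL/6 mice on sucrose gradients, collected a heavy and a light polysome pool from each animal, and sequenced total RNA of each pool. Heavy polysomes carry mRNAs bound by many ribosomes, and light pools carry mRNAs bound by few or none. The ratio of heavy to light is used as a readout of how fully an mRNA is engaged in translation. The pools here also held nuclear RNA and mitochondrial rRNA, which limits that reading. There were 3 wild-type animals on chow (chow 1 to 3), 2 wild-type animals on a ketogenic diet (keto 1 and 2), and 1 chow-fed animal homozygous for eIF4E S209A (S209A), in which the residue of the cap-binding factor eIF4E that MNK kinases phosphorylate is an alanine. The protocol gives 24 h on the diet, the time label reads 0 h, ages are not among the labels, and the series' design text speaks of fed and fasted livers where the sample labels say chow and ketogenic. Each title names its library as heavy or light polysome. The gradient fractions pooled were 2 to 7 and 8 to 13, and the labels do not say which of these ranges made the heavy pool. The titles call chow 3 and S209A "fed", and name the diet of the other animals.

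Depth and composition differed between libraries in ways that follow the animals. Total counts ranged from 3341046 to 13263355, and nuclear protein-coding genes took between 4.09% and 39.3% of them. The summed counts of the 126 mRNAs ranged from 4882 to 24443 per library, so that single genes rest on few reads. In chow 3 and S209A between 83.1% and 86.5% of the counts under 50 were even numbers, against 58.7% to 67.4% in the other libraries. Counting both mates of a read pair would give even counts, and whether this was done was not tested. If it was, a count there stands for fewer fragments than the same count elsewhere, and these libraries weigh more in the mean that chose the members. Nuclear RNAs such as Malat1 equalled 6.08% to 11.2% of the protein-coding counts in the keto libraries, 7.25% in chow 1 light, and 0.674% to 4.03% in the others. The 10 hepatocyte markers summed to between 5084 and 16048 CPM (counts scaled to library size after TMM, the trimmed mean of M-values) in every library. The 10 macrophage markers summed to 30.6 to 97.8 CPM. Erythroid markers reached 36.6 and 93.7 CPM in the keto light libraries and at most 23.3 CPM elsewhere.

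Slc27a2 was the most counted of the 126 mRNAs. It encodes a hepatic enzyme and transporter that activates very long chain fatty acids and bile acid precursors with coenzyme A. In the heavy pool it stood at 122, 536 and 446 CPM in chow 1, 2 and 3, at 341 and 385 CPM in keto 1 and 2, and at 526 CPM in S209A. In the light pool the values were 111, 393 and 534 CPM in chow, 407 and 345 CPM in keto, and 368 CPM in S209A. Both libraries of chow 1 lay below every other library, and the rest spanned 341 to 536 CPM without a break between the diets. Means were 368 ± 218 CPM in chow heavy (SD, n = 3) and 363 ± 30.9 CPM in keto heavy (SD, n = 2).

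Slc25a47, a mitochondrial carrier found mainly in hepatocytes, showed the same split more sharply. Its heavy values were 6.95, 118 and 75.5 CPM in chow 1, 2 and 3, 81 and 89.6 CPM in keto 1 and 2, and 82.6 CPM in S209A. Its light values were 9.39, 71.3 and 129 CPM in chow, 92.1 and 62.2 CPM in keto, and 89.2 CPM in S209A. Chow 1 therefore held less than 10 CPM in both pools while every other library held more than 60. Slc37a4, the glucose 6-phosphate translocase that feeds glucose production in the endoplasmic reticulum, was 4.97 and 5.22 CPM in chow 1 heavy and light, 50.9 and 27.3 CPM in chow 2, 26.4 and 17.9 CPM in chow 3, 21.9 and 11.1 CPM in keto 1, 13.9 and 8.13 CPM in keto 2, and 20.7 and 24.4 CPM in S209A. Chow 1 was again the lowest animal in both pools, and chow 2 the highest. By Spearman correlation of CPM over the 12 libraries the mRNAs most like Slc27a2 were Slc25a47 (0.755), the glycine transporter Slc6a9 (0.636) and the folate carrier of mitochondria Slc25a32 (0.608). These libraries share animals, and chow 1 is low in Slc27a2, Slc25a47 and Slc25a32, so the coefficients are a description only.

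The upstream sequences of these 3 genes are shown as examples from the mRNAs that were low together in chow 1. They are the 250 bases before a start that RefSeq lists, on GRCm38.p6, plus strand, 5′ to 3′: chr2:126552774-126553023 for Slc27a2, chr12:108850879-108851128 for Slc25a47 and chr9:44396696-44396945 for the first of 3 listed starts of Slc37a4. The Slc25a47 window lies inside that gene's annotated span (108849833 to 108856815), so the start it precedes is not the outermost one. Capitals mark the half-site bound by nuclear receptors (AGGTCA, or TGACCT on the other strand) and the GC box (GGGCGG, or CCGCCC).
Slc27a2: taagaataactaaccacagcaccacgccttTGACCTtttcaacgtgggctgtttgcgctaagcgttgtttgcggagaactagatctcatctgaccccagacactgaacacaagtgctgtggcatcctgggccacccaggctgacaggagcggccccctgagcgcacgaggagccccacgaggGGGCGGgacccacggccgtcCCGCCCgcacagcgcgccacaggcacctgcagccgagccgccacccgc
Slc25a47: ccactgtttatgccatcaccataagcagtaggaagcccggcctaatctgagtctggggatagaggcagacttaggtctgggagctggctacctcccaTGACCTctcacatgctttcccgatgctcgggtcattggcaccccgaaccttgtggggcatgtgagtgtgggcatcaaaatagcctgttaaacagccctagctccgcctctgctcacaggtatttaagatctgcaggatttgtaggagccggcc
Slc37a4: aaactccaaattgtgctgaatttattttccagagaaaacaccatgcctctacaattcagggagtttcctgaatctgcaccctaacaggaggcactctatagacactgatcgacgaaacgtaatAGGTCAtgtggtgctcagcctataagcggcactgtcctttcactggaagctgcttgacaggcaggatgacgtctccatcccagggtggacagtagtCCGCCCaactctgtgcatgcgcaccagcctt

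Each of the 3 windows held the half-site once, and Slc27a2 and Slc37a4 also held GC box letters. Over the first listed starts, 97 of the 126 genes had an entry in the promoter table. The half-site was in 14 of these 97 windows (14.4%), against 13.8% of all 27025 genes listed. It was in 4 of the 12 matched genes that were lowest in both libraries of chow 1, and the 3 genes shown are among these 4. The GC box was in 61 of the 97 (62.9%), against 32.9% of all genes, and the TATA box (TATAAA, or TTTATA on the other strand) was in 2 (2.06%), against 13% of all genes. The core of the composite element that ATF4 binds (TGATGCAA, or TTGCATCA) was in 0 of the 97, against 0.818% of all genes. Of the 12 matched genes lowest in chow 1, 8 held the GC box and 0 the TATA box or the ATF4 core. The 27025 genes were not limited to protein-coding or tested genes, as the members are, so these shares compare unlike sets. None of these 4 motifs contains another. The motifs and the genes shown were chosen after values and sequences had been seen, and a match is not evidence of binding.

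The other most counted mRNAs came from the amino acid, mitochondrial, ion and metal classes. Slc7a2, a cationic amino acid transporter, ranged from 56.7 to 222 CPM with a median of 147 over the 12 libraries, and both chow 1 libraries (69.3 and 56.7 CPM) were the lowest. Slc38a3, a sodium-coupled glutamine transporter, ranged only from 65.5 to 124 CPM (median 95.8). Slc38a4, a carrier of small neutral amino acids, ranged from 55.3 to 134 CPM (median 89.4). Slc25a22, a mitochondrial glutamate carrier, ranged from 12.5 to 63.2 CPM (median 42.6), with 20.9 and 12.5 CPM in chow 1 and at least 38.8 CPM in every other library. Slc4a4, a sodium bicarbonate cotransporter, ranged from 18.1 to 60.3 CPM (median 39.1), and chow 1 was lowest here as well. The scaffold gene Slc9a3r1 ranged from 13.7 to 50.9 CPM (median 38.3), and Slc25a25, which exchanges ATP-magnesium for phosphate across the inner mitochondrial membrane, from 17 to 56.2 CPM (median 38.4). The zinc, iron and manganese importer Slc39a14 ranged from 13.4 to 48.4 CPM (median 28.8). CPM is not scaled by transcript length, so no order of levels between genes is given.

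**Figure D1:**
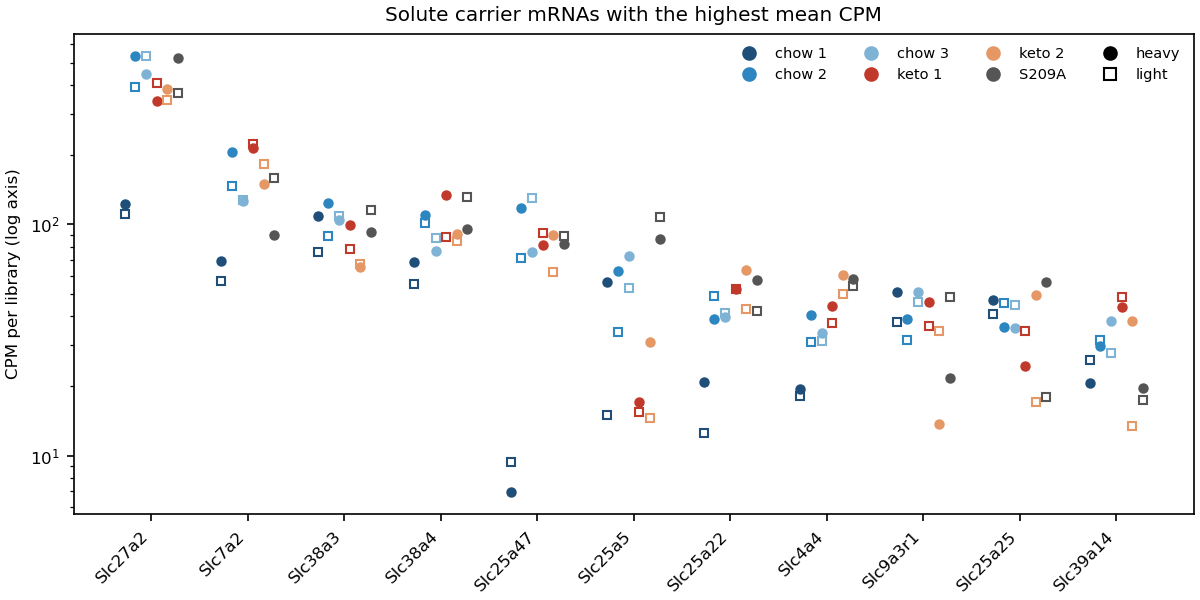
CPM (log axis) of 11 of the 12 solute carrier mRNAs with the highest mean, 1 symbol per library, filled circles for heavy and open squares for light pools, coloured by animal. Chow 1 (darkest blue) lies below all other libraries for Slc27a2, Slc7a2, Slc38a4, Slc25a47, Slc25a22 and Slc4a4, with Slc25a47 at 6.95 and 9.39 CPM.

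Chow 1 held the lowest value of many of the 126 mRNAs. Both of its libraries were the lowest of the 12 for 16 members, or 12.7%, where 3.96% of the 10555 tested genes did so. The 16 were Slc27a2, Slc27a1, Slc25a10, Slc25a11, Slc25a22, Slc25a32, Slc25a39, Slc25a47, Slc37a4, Slc38a4, Slc47a1, Slc4a4, Slc7a2, Slc20a2, Slc22a5 and Slc9a9. The number was also 16 when libraries were scaled by RLE or by protein-coding median ratios, against 3.67% and 3.58% of tested genes. Both libraries of chow 1 were the highest for 2 members, Slc3a1 and Slc41a2 (3.56% of tested genes). Metabolic genes differed in the same animal: Cyp4a14, a fatty acid hydroxylase, was 24.8 and 6.26 CPM in chow 1 and 244 to 1453 CPM in the other libraries, while Fasn, the fatty acid synthase, was 255 and 88.2 CPM against 22.6 to 77 CPM. In keto, Cyp4a14 was 248 and 244 CPM in heavy and 287 and 277 CPM in light pools. Both pools of chow 2 and 3 held more Cyp4a14, at 1453 and 721 CPM in heavy and 437 and 679 CPM in light. The part of these differences in the solute carrier values was not tested. In bulk liver, fewer cells of a type and less RNA per cell cannot be told apart.

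The same count for the remaining animals gave 1 lowest (tested genes 1.14%) and 1 highest (1.12%) in chow 2, and 4 lowest (1.56%) and 0 highest (2.11%) in chow 3. Keto 1 was lowest for 1 member (1.7%) and highest for 9 (2.82%), including Slc7a2, Slc39a14 and Slc25a51. Keto 2 was lowest for 3 (2.87%) and highest for 8 (2.9%), including Slc33a1 and Slc35c1. S209A was lowest for 2 (1.72%), Slc25a23 and Slc25a44, and highest for 1 (3.32%), Slc25a5. These counts, chosen after the values had been seen, describe 6 animals and carry no test.

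**Figure D2:**
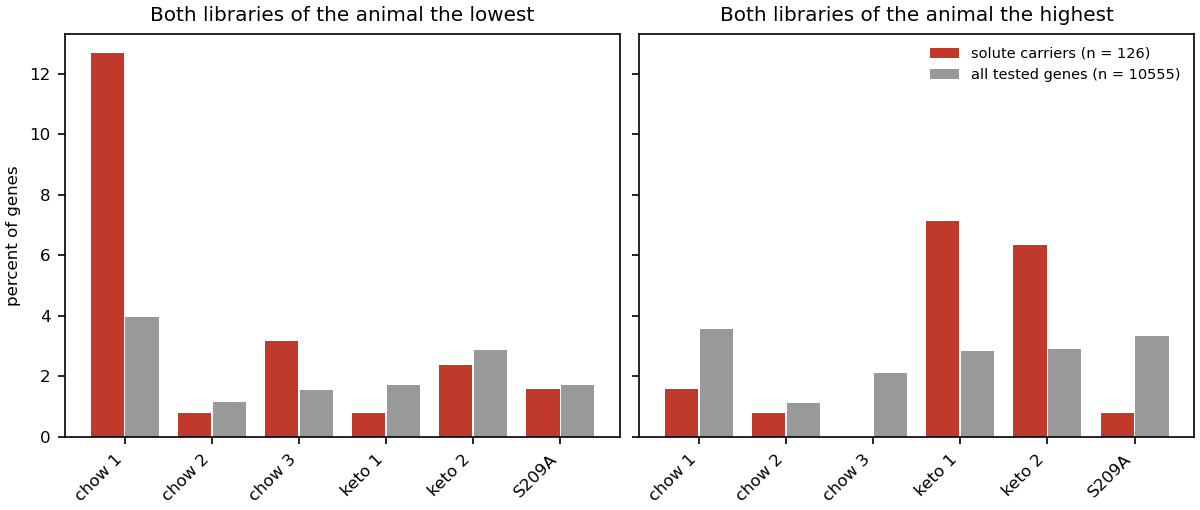
Percent of genes for which both libraries of an animal were the lowest (left) or the highest (right) of the 12, for the 126 solute carriers (red) and the 10555 tested genes (grey). The tallest bar is chow 1 on the left, at 12.7% of solute carriers against 3.96% of tested genes.

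Heavy and light pools were compared within each animal to ask which mRNAs were more fully engaged with ribosomes. Both pools held nuclear RNA as well. Malat1 was 8406 and 3042 CPM in keto 1 and 2 heavy, and 3024 and 1965 CPM in keto 1 and 2 light. It was also higher in the heavy pool of chow 3 and S209A, and lower in that of chow 1 and 2. How far such RNA enters the ratios was not tested. No solute carrier passed the test of heavy against light. In chow, edgeR's quasi-likelihood test with Benjamini-Hochberg adjustment called 0 of 126 at an adjusted p of 0.05, where it called 0.227% of all tested genes, and 8 of 126 had an unadjusted p under 0.05 (6.96% of tested genes). In keto it called 0 (tested genes 0.18%), with 3 at an unadjusted p under 0.05 (4.27%). Over the 3 conditions together it called 0 (0.341%), with 5 under 0.05 before adjustment (4.35%). The difference between keto and chow in heavy over light was called for 0 (0.189%), with 5 under 0.05 before adjustment (6.04%). With DESeq2 the chow comparison called 1 member, Slc25a5 (adjusted p = 0.0372), and the other comparisons of pools 0. Without chow 3, edgeR called 5 in chow: Slc3a2 (1.93), Slc16a10 (1.51), Slc25a5 (1.35) and Slc26a1 (1.26) higher in the heavy pool and Slc4a1ap (-2.64) lower, with adjusted p from 0.00924 to 0.049.

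As a group the members sat near equal loading of the pools. In chow 64 of 126 had a fitted log2 heavy over light above 0, with a median of 0.02 against -0.09 for all tested genes. In keto the number was again 64, with a median of 0.03 for members and 0.03 for tested genes. Over the 3 conditions it was 62, with medians of -0.02 and 0.01. Taken animal by animal, the members' median lay between -0.13 in S209A and 0.07 in keto 1. By class, the monocarboxylate and carboxylate carriers had the highest median in chow (0.58, 5 of 6 above 0) and a median of -0.13 in keto (2 of 6 above 0), and the sugar carriers had medians of 0.35 and 0.54 (6 and 5 of 7 above 0). Organic ion carriers lay lower, with medians of -0.20 in chow and -0.72 in keto (4 and 2 of 10 above 0). Over the 3 conditions the sugar carriers had a median of -0.12 (2 of 7 above 0). The monocarboxylate and organic ion carriers had medians of 0.03 and -0.38 there (3 of 6 and 3 of 10 above 0). None of these classes held a called gene.

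Of the mRNAs on the heavy side, Slc25a5, the ubiquitous ADP/ATP translocase, was 56.4, 62.8 and 73.3 CPM in the heavy and 15, 34.1 and 53.2 CPM in the light pools of chow 1, 2 and 3. Each chow animal held more in the heavy pool, although the light value of chow 3 came close to the heavy value of chow 1. The fitted log2 heavy over light in chow was 1.07 ± 0.37 (SE, 3 animals; edgeR adjusted p = 0.296). Slc25a5 has processed copies in the genome, and how reads shared with copies were counted is not given in the sources used here. Slc16a10, a transporter of aromatic amino acids, was 32, 27.1 and 19.4 CPM in heavy and 7.65, 12.9 and 16.1 CPM in light pools of the same animals, with no overlap between pools. Its log2 value was 1.10 ± 0.40 (SE, 3 animals; edgeR adjusted p = 0.335), and in keto it was 0.82 ± 0.48 (SE, 2 animals; edgeR adjusted p = 1). The copper importer Slc31a1 (1.14), the sulfate transporter Slc26a1 (0.90) and the anion exchanger Slc4a2 (0.72) were also above 0 in every chow animal, with adjusted p between 0.442 and 0.881.

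On the light side, Slc35e2, an orphan relative of the nucleotide sugar transporters, was 1.49, 3.04 and 2.77 CPM in heavy and 5.22, 8.91 and 6.23 CPM in light pools of chow 1, 2 and 3. Every light library exceeded every heavy one. The log2 heavy over light in chow was -1.46 ± 0.50 (SE, 3 animals; edgeR adjusted p = 0.285), the lowest adjusted p among the members. The phosphate transporter homologue Slc17a2 was lower in the heavy pool of all 6 animals, with log2 values of -0.51, -1.64 and -0.76 in chow, -0.90 and -0.72 in keto and -0.28 in S209A. Its mean over the conditions was -0.69 ± 0.34 (SE, 6 animals; edgeR adjusted p = 1). The mitochondrial NAD carrier Slc25a51 (-0.76), the glutathione carrier Slc25a39 (-0.30) and the orphan Slc22a23 (-0.26) were below 0 in every chow animal, with adjusted p of 0.863, 0.99 and 0.991.

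In all 6 animals the heavy pool exceeded the light one for 3 members, Slc16a5, Slc25a10 and Slc4a4 (1.6% of tested genes), and fell short of it for 5 (1.83%), including Slc17a2, Slc17a5, Slc22a23 and Slc33a1. Slc25a10, the mitochondrial dicarboxylate carrier, had log2 values of 0.17, 0.13 and 0.33 in chow, 0.80 and 1.07 in keto and 0.08 in S209A, so the keto animals were the highest. The fitted keto value was 0.94 ± 0.47 (SE, 2 animals; edgeR adjusted p = 1). Slc27a1, a fatty acid transport protein, had the highest keto value among the better counted members, 1.38 ± 0.69 (SE, 2 animals; edgeR adjusted p = 1), with 12.9 and 6.57 CPM in heavy and 6.29 and 1.77 CPM in light pools. Other keto values above 0 in both animals were the phosphate transporter Slc20a1 (0.94), Slc37a4 (0.88) and the mitochondrial phosphate carrier Slc25a3 (0.87). Values below 0 in both keto animals included the amino acid transporter Slc38a10 (-0.62), the taurine and GABA transporter Slc6a13 (-0.61) and Slc38a2 (-0.44). For all of these the edgeR adjusted p was 1.

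The diet difference in heavy over light had a median of -0.02 over the members and 0.15 over all tested genes. Slc27a1 (1.55), Slc20a1 (1.40), the mitochondrial coenzyme A carrier Slc25a42 (1.34) and Slc35e2 (1.19) had the highest values among the better counted members, and Slc7a2 (-0.43) was on the lower side. Their edgeR adjusted p ran from 0.824 to 0.992. The value of Slc27a1 includes a count of 0 in chow 1 heavy.

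**Figure D3:**
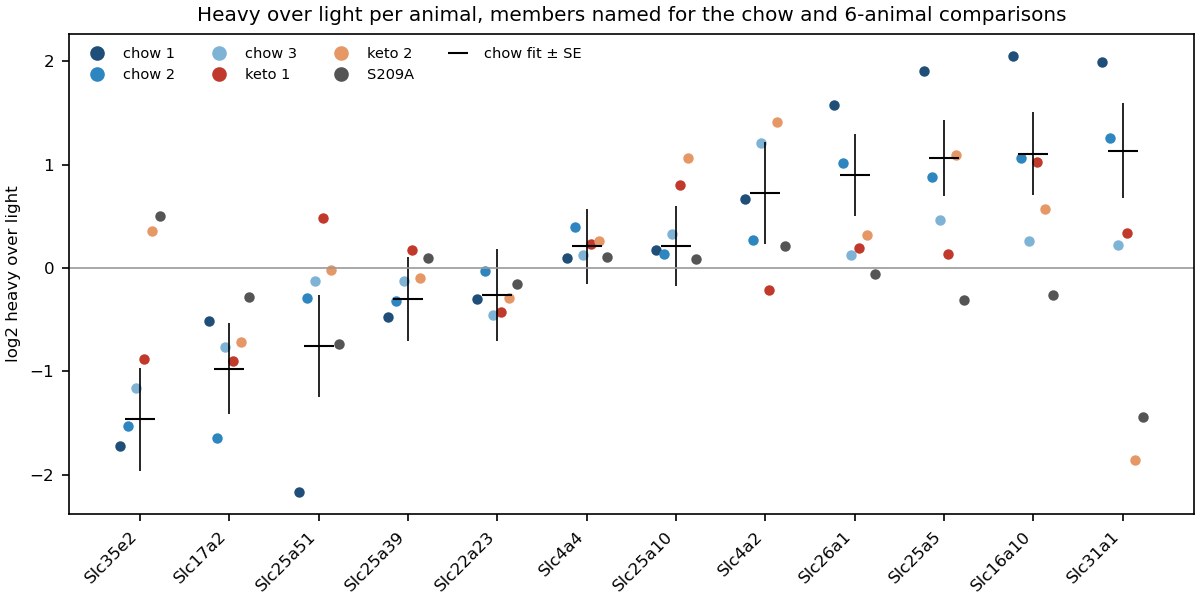
Log2 heavy over light per animal (coloured points) for members named in the chow and 6-animal comparisons, ordered by the fitted chow value (black bar ± SE). Slc17a2 and Slc22a23 lie below 0 in all 6 animals, and Slc25a10 and Slc4a4 above it. For Slc31a1 keto 2 and S209A lie below 0.

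Among 58 other transport genes (organic anion transporters, ABC transporters, pump subunits, aquaporins, the 8 solute carriers left out by name, and other transport genes such as Mpc1, Tfrc and Trf), all of them tested, the chow comparison called 1, Slco1a1, an uptake transporter of organic anions. Slco1a1 was 17.6, 6.23 and 3.65 CPM in heavy and 25.1, 14.5 and 34.1 CPM in light pools of chow 1, 2 and 3. It was lower in heavy pools, by log2 values of -1.63 in chow and -2.17 in keto (edgeR adjusted p = 0.0493 and 0.034), and by -1.86 over the 3 conditions (edgeR adjusted p = 2.9e-05). Its relative Slco1a4 was higher in heavy pools over the 3 conditions (1.41, edgeR adjusted p = 0.00581). The other 56 were not called in any of these comparisons.

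Keto and chow livers were compared within each pool to ask whether these mRNAs differed by diet. No member passed the test. In the heavy pool edgeR called 0 of 126 at an adjusted p of 0.05, as it called 0% of all tested genes, and 11 had an unadjusted p under 0.05 (8.17% of tested genes). In the light pool it called 0 (tested genes 0%), with 8 under 0.05 before adjustment (6.07%). The fitted values were nevertheless above 0 for 84 of 126 members in the heavy pool (66.7%, tested genes 48.4%) and for 78 in the light pool (61.9%, tested genes 44.1%). Median log2 keto over chow was 0.39 in heavy and 0.30 in light pools for members, and -0.04 and -0.13 for all tested genes. Without keto 1 the members' medians were 0.21 and 0.0897. The summed counts of the 126 made up 1.76% and 1.77% of protein-coding counts in the heavy pools of keto, against 0.848%, 1.3% and 1.38% in those of chow, with no overlap in this share. Scaled to library size after TMM instead, the sum in chow 2 heavy exceeded that in both keto heavy libraries, so the diets overlapped. In the light pool the summed counts made up 1.67% and 1.37% of protein-coding counts in keto and 1.13%, 1.41% and 1.51% in chow, which overlap. In the heavy pool the share of nuclear RNA moved the same way, at 11.2% and 10.4% of protein-coding counts in keto and 0.975%, 1.38% and 2.06% in chow. Mitochondrial rRNA took 47.3% and 74.2% of the total in the heavy pools of keto, against 16.7%, 12.9% and 13.8% in those of chow. The sum of the 10 hepatocyte markers moved the opposite way there, at 6301 and 7145 CPM in keto and 11911, 16048 and 9769 CPM in chow. Single markers did not all follow the sum: scaled to library size, Apob was higher in both keto heavy libraries than in every chow heavy one. The mitochondrial rRNA share and the marker sum overlapped between diets in the light pool. The part of these 3 measures in the solute carrier values was not tested. The file headers name 1 aligner for chow 1 and 2, another for chow 3 and S209A and none for keto, so that diet and any difference in processing cannot be told apart.

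Both keto libraries lay above all 3 chow libraries for 31 members in the heavy pool (14.5% of tested genes) and for 31 in the light pool (11.2%), which is 24.6% of the members each. They lay below all chow libraries for 11 in the heavy pool (13.4%) and for 11 in the light pool (14.6%), or 8.73% of the members. Without chow 1 the keto libraries were above for 39 members in heavy (tested genes 19.5%) and 36 in light pools (16.4%). In both pools at once keto was above for 16 members (3.58% of tested genes), including Slc17a2, Slc25a21, Slc25a23, Slc25a28, Slc25a33, Slc25a51, Slc30a7, Slc35b2, Slc35d1, Slc35e2, Slc39a1, Slc39a9, Slc48a1, Slc4a4 and Slc4a7. It was below in both for 2 (2.98%), Slc3a2 and the peroxisomal carrier Slc25a17.

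**Figure D4:**
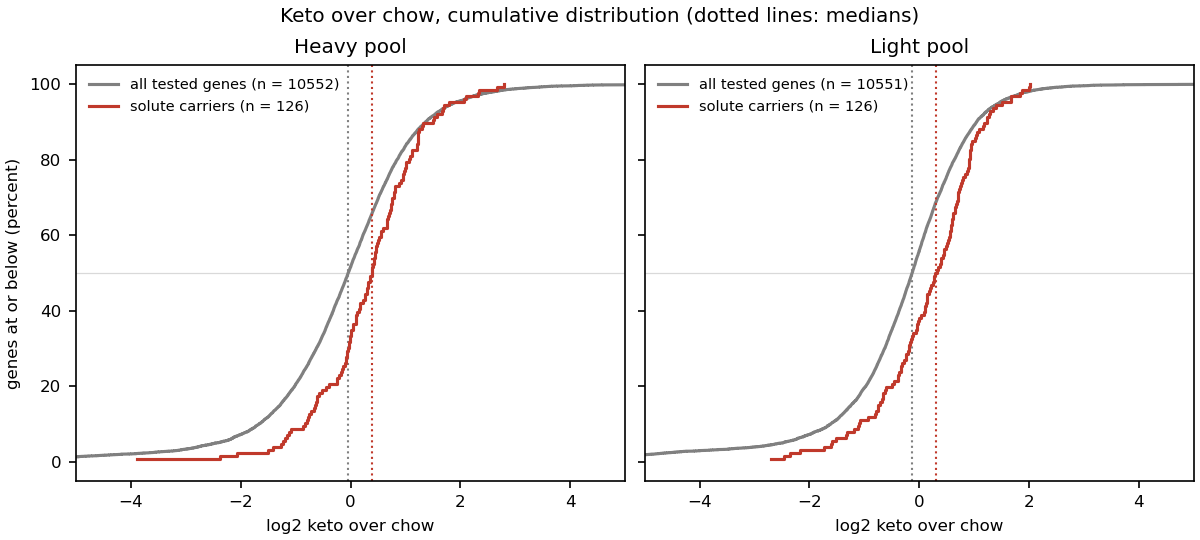
Cumulative percent of genes by log2 keto over chow in the heavy (left) and light (right) pool, for the 126 solute carriers (red) and all tested genes (grey). Dotted lines mark the medians, 0.39 and -0.04 in the heavy pool and 0.30 and -0.13 in the light pool. The axis ends at 5 on either side.

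By class, the nucleotide sugar and acetyl-CoA carriers of the Golgi and endoplasmic reticulum had the highest median keto over chow, 1.22 in the heavy pool (9 of 11 above 0) and 0.92 in the light pool (8 of 11). Keto exceeded all chow libraries for 6 of these 11 in heavy and 3 in light pools, and was below them for 0. Slc35e2 was 14.8 and 20.1 CPM in keto heavy and 1.49, 3.04 and 2.77 CPM in chow heavy. Light pools held 27.3 and 15.6 CPM in keto and 5.22, 8.91 and 6.23 CPM in chow. No keto library overlapped a chow one, and S209A, at 4.42 and 3.08 CPM, was below both keto animals. The log2 difference was 2.80 ± 0.58 (SE, 2 against 3 animals) in the heavy pool with an edgeR adjusted p of 0.268, and 1.66 ± 0.50 in the light pool with 0.796. Slc35d1, which brings UDP-glucuronic acid into the endoplasmic reticulum for conjugation, was 28.1 and 22.4 CPM in keto heavy and 5.96, 16.1 and 8.31 CPM in chow heavy. Light pools held 18.3 and 17 CPM in keto and 8.52, 14.4 and 4.75 CPM in chow. The values did not overlap in either pool, and the log2 differences were 1.31 ± 0.54 and 0.94 ± 0.54 (SE, 2 against 3 animals; edgeR adjusted p = 0.553 and 0.804).

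Mitochondrial carriers, the largest class, were above 0 for 20 of 26 in the heavy pool (median 0.39) and 19 of 26 in the light pool (median 0.50). This class is every Slc25 member and so includes the peroxisomal carrier Slc25a17. Keto was above all chow libraries for 9 and 10 of the 26, and below for 2 and 3, with Slc25a17 among the latter in both pools. Slc25a23, an ATP-magnesium and phosphate carrier, was 42.6 and 25.1 CPM in keto heavy and 19.6, 13 and 10.9 CPM in chow heavy, and 27.1 and 32.5 CPM in keto light and 26.4, 21.3 and 8.42 CPM in chow light. Keto 1 exceeded chow 1 by a small margin in the light pool. The log2 difference in the heavy pool was 1.23 ± 0.50 (SE, 2 against 3 animals; edgeR adjusted p = 0.551). Slc25a10 was 45.9 and 43.3 CPM in keto heavy and 8.19, 27 and 21.7 CPM in chow heavy, a log2 difference of 1.23 ± 0.53 (SE, 2 against 3 animals; edgeR adjusted p = 0.58). Its light values in keto, 26.3 and 20.5 CPM, overlapped with 7.31, 24.6 and 17.3 CPM in chow. Slc25a22 was 52.5 and 63.2 CPM in keto heavy and 20.9, 38.8 and 39.8 CPM in chow heavy, with no overlap (log2 0.80, edgeR adjusted p = 0.706), and overlapped in the light pool. Slc25a51 and Slc25a42 had heavy differences of 1.31 and 1.01 (edgeR adjusted p = 0.614 and 0.624).

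Slc25a5 had the lowest heavy difference of this class. It was 17 and 31.1 CPM in keto heavy and 56.4, 62.8 and 73.3 CPM in chow heavy, and 15.4 and 14.5 CPM in keto light and 15, 34.1 and 53.2 CPM in chow light. The pools differed in this: heavy values did not overlap, and light values did. The log2 difference in the heavy pool was -1.42 ± 0.51 (SE, 2 against 3 animals; edgeR adjusted p = 0.512). The 87 and 108 CPM of the S209A libraries were the highest of all 12. Slc25a25 was lower in keto in the light pool, 34.5 and 17 CPM against 41.1, 45.7 and 44.7 CPM in chow (log2 -0.76, edgeR adjusted p = 0.821), and overlapped in the heavy pool.

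Amino acid and peptide carriers were centred near 0, with medians of 0.01 in heavy and -0.02 in light pools and 11 and 10 of 21 above 0. Slc3a2 encodes the heavy chain that brings several amino acid exchangers to the cell surface. It was 4.72 and 3.09 CPM in keto heavy and 32, 22.5 and 7.58 CPM in chow heavy, and 2.29 and 3.53 CPM in keto light and 7.31, 6.47 and 7.79 CPM in chow light. Every keto library was below every chow library, and S209A, at 13.2 and 15.6 CPM, was above the keto animals. The log2 difference was -2.39 ± 0.68 (SE, 2 against 3 animals) in the heavy pool with an edgeR adjusted p of 0.49, and -1.33 ± 0.56 in the light pool with 0.796. Its partner light chains were little counted: raw counts ran from 0 to 18 for Slc7a5, 0 to 14 for Slc7a6 and 0 to 21 for Slc7a8, all below the limit for membership.

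The calls for Slc35e2 and Slc3a2 turned on the setting. In the heavy pool both passed with DESeq2 (adjusted p = 0.00496 and 0.0462), with edgeR without a filter on low counts (0.00975 and 0.0352), with the word in the titles as a term (0.0352 and 0.0131), and without chow 3 (0.0427 and 0.0271). Neither passed with other scalings, a filter at a mean of 50 counts, limma-voom, or any other animal left out. DESeq2 called 0 members in the light pool, and limma-voom called 0 in each of the comparisons tested.

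Slc7a2 was higher in keto in the light pool, at 222 and 183 CPM against 56.7, 146 and 128 CPM in chow, and overlapped in the heavy pool. Its log2 difference in the light pool was 0.88 ± 0.60 (SE, 2 against 3 animals; edgeR adjusted p = 0.831). Slc6a13 and Slc38a3 had heavy differences of -1.23 and -0.45 (edgeR adjusted p = 0.614 and 0.866). Slc3a1 is the subunit that pairs with the cystine transporter Slc7a9. Its raw counts were 161 and 181 in chow 1, 12 and 8 in chow 2, 2 and 4 in chow 3, 2 and 4 in keto 1, 8 and 8 in keto 2, and 51 and 23 in S209A, heavy before light. The fitted heavy difference of -3.89 ± 1.69 (SE, 2 against 3 animals; edgeR adjusted p = 0.58) rests on chow 1: without that animal it was 0.02 ± 1.42. With chow 1 kept, edgeR called it without a filter on low counts (adjusted p = 0.00104), with the titles' word as a term (0.0113) and without chow 3 (0.0422). The settings with the titles' word and without chow 3 both set keto against chow 1 and 2. Slc7a9 itself had 0 counts in every library.

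Metal carriers had median differences of 0.72 in heavy (10 of 15 above 0) and 0.18 in light pools (9 of 15). The copper importer Slc31a1 was an exception in the heavy pool, at 9.43 and 3.48 CPM in keto against 18.9, 19 and 9.48 CPM in chow (log2 -1.27, edgeR adjusted p = 0.614). Keto 1 and chow 3 were almost equal there. Inorganic ion carriers had medians of 0.62 in heavy and -0.18 in light pools. Among them Slc4a4 was 44.2 and 60.3 CPM in keto heavy against 19.4, 40.7 and 34 CPM in chow, and 37.6 and 50.2 CPM in keto light against 18.1, 30.9 and 31.2 CPM in chow. The values did not overlap, and the light difference was 0.70 ± 0.47 (SE, 2 against 3 animals; edgeR adjusted p = 0.827). S209A, on chow, reached 58.2 and 54.1 CPM, above every chow library.

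All 6 monocarboxylate and carboxylate carriers had a light difference above 0 (median 0.60), and 4 of 6 a heavy one (median 0.24). The organic ion carriers had medians of 0.24 and 0.52, with the cation extruder Slc47a1 at 11.4 and 13.1 CPM in keto light and 4, 11.1 and 7.56 CPM in chow light (log2 0.69, edgeR adjusted p = 0.834). The fatty acid carriers Slc27a1, Slc27a2 and Slc27a4 had medians of -0.02 and 0.12. Slc27a2, Slc25a47 and Slc37a4 differed by -0.02, 0.35 and -0.62 in the heavy pool, each with an edgeR adjusted p of at least 0.876.

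Among less counted hepatocyte transporters, Slc25a33, a mitochondrial pyrimidine nucleotide carrier, was 8.65 and 4.83 CPM in keto heavy against 2.98, 2.9 and 0.583 CPM in chow, and 12.4 and 5.66 CPM in keto light against 1.39, 3.16 and 2.26 CPM. The groups did not overlap in either pool, and the log2 differences were 1.69 and 2.01 (edgeR adjusted p = 0.631 and 0.796). Slc33a1, which carries acetyl-CoA into the endoplasmic reticulum, was 3.77 and 9.27 CPM in keto heavy against 1.99, 2.46 and 2.04 CPM in chow. The ascorbate transporter Slc23a1 was 5.98 and 13.1 CPM in keto heavy against 5.96, 2.32 and 5.25 CPM, and the thiamine transporter Slc19a2 was 8.39 and 9.19 CPM in keto light against 6.26, 6.9 and 4.05 CPM. Slc16a1, which carries lactate and ketone bodies, was 6.48 and 10.6 CPM in keto light and 4.87, 6.47 and 4.83 CPM in chow light, so keto 1 exceeded chow 2 by a very small margin. On the lower side were the glucose transporter Slc2a1, at 0.315 and 1.16 CPM in keto heavy against 2.23, 2.32 and 1.75 CPM, and the fatty acid transport protein Slc27a4, at 1.89 and 2.32 CPM against 3.23, 7.39 and 3.72 CPM. Slc17a3 was lower in keto light, at 1.72 and 0.707 CPM against 4.52, 6.47 and 2.03 CPM, and so was the potassium chloride cotransporter Slc12a7 (log2 -0.66, edgeR adjusted p = 0.833). The anion exchanger Slc4a2 was lower in keto heavy by a small amount (log2 -0.53, edgeR adjusted p = 0.848).

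Several members of the hepatocyte list overlapped between diets in both pools. Over the 12 libraries the citrate carrier Slc25a1 ranged from 11.3 to 22.9 CPM, the nucleoside transporter Slc29a1 from 7.01 to 19.5 CPM, and the amino acid transporter Slc38a2 from 10.9 to 23.4 CPM. The organic anion transporter family member Slc22a30 ranged from 0.643 to 17.4 CPM, with its 3 highest values in chow 1 and chow 2. The urate transporter Slc2a9, the choline transporter Slc44a1, the GDP-fucose transporter Slc35c1 and the zinc transporters Slc30a1 and Slc39a4 all stayed at or below 10.9 CPM.

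**Figure D5:**
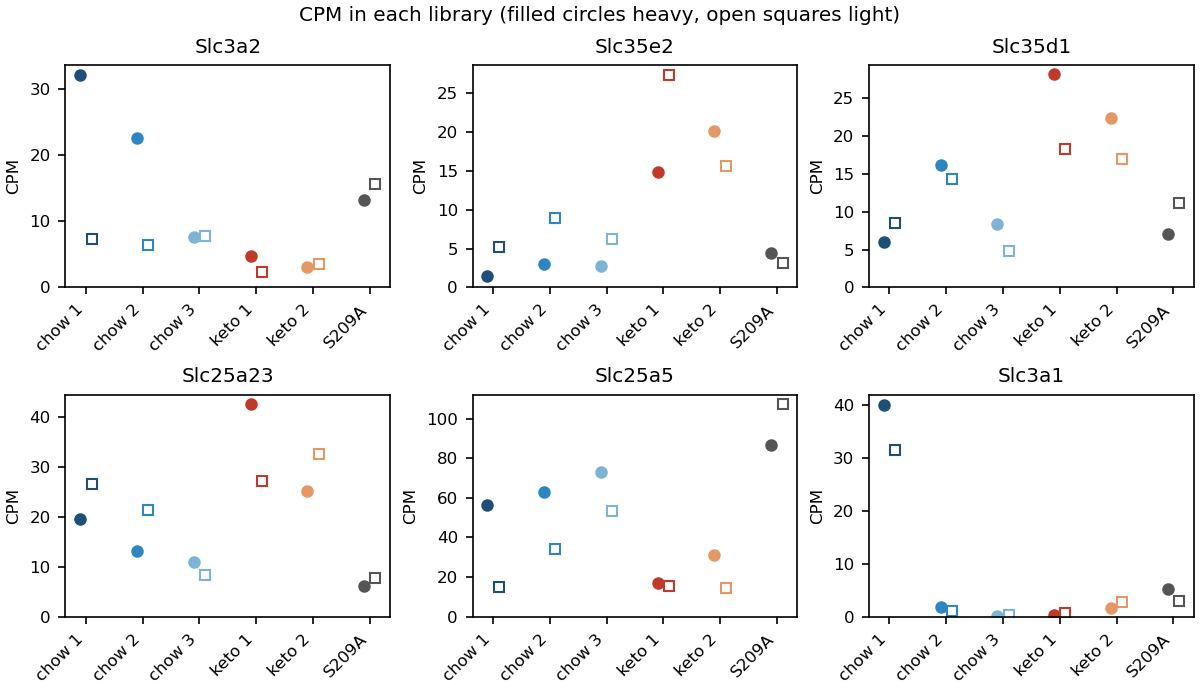
CPM in each library (filled circles heavy, open squares light) for 6 members that the diet comparison turns on, by animal. Slc35e2 and Slc35d1 are higher in both keto animals than in any chow animal of the same pool, Slc3a2 is lower, and the Slc3a1 panel is dominated by chow 1 at 40 and 31.5 CPM.

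The 1 S209A animal allows no test, and its values were set beside the range of the chow animals. In the heavy pool 5 members were above that range and at least 2-fold from its mean (11.4% of tested genes) and 11 were below it (9.74%). In the light pool 10 were above (14.3%) and 19 below (21.4%). Median log2 S209A over chow was -0.25 in heavy and -0.12 in light pools, against -0.07 and -0.16 for all tested genes, and 40 and 55 of 126 were above 0. Without chow 2 the members' medians were -0.13 and 0.00087 (54 and 63 above 0). Against chow 3 alone, which shares the titles' word with S209A, they were -0.17 and -0.02 (58 and 61 above 0). Slc25a23 was 6.17 and 7.71 CPM in S209A, the lowest of all libraries in both pools, and stood at 19.6, 13 and 10.9 CPM in chow heavy. Its log2 values of -1.23 and -1.22 were nearly the same in both pools. Slc25a5 light was 108 CPM in S209A against 15, 34.1 and 53.2 CPM in chow (log2 1.70), and Slc3a2 light 15.6 CPM against 7.31, 6.47 and 7.79 CPM (log2 1.16). Genotype and individual animal cannot be told apart here.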

How the data were processed

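Per the labels' protocols, 10 ng of RNA from each pool was made into stranded total RNA libraries. The deposited files hold raw counts per Entrez gene, and the submitters' processing notes name HISAT2, StringTie, Trimmomatic and the build mm10; per the file headers, alignments came from Bowtie2 in chow 1 and 2 and from HISAT2 in chow 3 and S209A, with no aligner named for keto. The sources used here do not give the counting strand or the treatment of multiply matching reads. Spike-in ERCC RNA was added, but 0 ERCC entries are in the tables, so no absolute scale was set.

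Symbols were joined through RefSeq (25275 of 27179 entries named). Counts were tested with edgeR 4.0.16 in R 4.3.3 after TMM scaling and a filter of at least 10 counts (filterByExpr, grouped by condition), two-sided, with a threshold of 0.05 on the adjusted p. Heavy over light was fitted over all 12 libraries with a term per animal. Keto over chow used the 6 libraries of a pool. The SE beside a fitted log2 value is the size of that value divided by the square root of the test's F statistic. It rests on the spread over all libraries of the fit, and the animals given with it are those compared. Heavy and light libraries of 1 animal correlated in their deviations from group means in chow (r of 0.265 to 0.434). In keto they hardly did (r of 0.0558), and with 2 animals the deviations mirror each other, so this is a single value. The pairing comes from the labels. Per-animal log2 values use a prior count. The labels number the livers without further detail, so p-values measure the spread between these samples; no 2 of the 66 library pairs were identical. Alternatives were DESeq2 1.42.0, limma-voom 3.58.1, other scalings, filters, blocks and leaving out each animal.

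The members, lists and classes were chosen with earlier results of these data known. Members were named where they passed a test, led a comparison with a mean of at least 50 counts and the same side in every animal or no overlap, were among the 12 most counted, or were on a list of 45 hepatocyte transporters (39 of them members). Others were named after their values were seen. Filter groups were first condition with pool, then condition. Code was tested on simulated counts. No protein length was used here, so a planned comparison with it was not run. Levels per transcript length were not made. Some members are counted but not reported here by name.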

Additional observations from a re-analysis of the deposited data

Results flagged for a closer look

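In 5 of the 126 members (3.97%) every chow animal was on one side of 0 in log2 heavy over light and every keto animal on the other, which 7.85% of the 10555 tested genes also did. They are given because the 2 diets went opposite ways, and none of the differences passed edgeR's test (adjusted p 0.768 to 0.938). The keto minus chow difference was 2.24 for the manganese exporter Slc30a10, with log2 values of -0.47, -0.72 and -0.10 in chow and 1.79 and 1.52 in keto, on a mean of 17 raw counts. It was 2.04 for Slc4a1ap, 1.98 for the potassium chloride cotransporter Slc12a4, and 1.47 for the scaffold gene Slc9a3r2. It was -1.41 for Slc22a18. Their means of 17 to 45 raw counts leave these values imprecise.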

How the results depend on the processing

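No member named by rank in a comparison changed its sign in any alternative run, medians near 0 crossed it, and 256 of 280 summary values stayed within the animals' spread or within 1.5 times. In chow heavy over light, DESeq2 called 1 member (Slc25a5) where edgeR called 0; leaving out 1 animal gave 0 to 5 calls, the 5 without chow 3. The median of members, 0.02, ran from -0.13 (without chow 3) to 0.0198 across leave-outs. The keto median was 0.0515 with scaling over protein-coding genes, 0.24 over the 42 members with a mean of 50 counts, 0.0624 with limma-voom, and 0.087 with no replicate block. Leaving out 1 animal gave medians from 0.0252 to 0.075. The median over all conditions was 0.0735, and the diet difference 0.19, over those 42 members; the diet difference ran from -0.0145 to 0.13 across leave-outs. For keto over chow in the heavy pool, 3 members were called with no filter, 2 with DESeq2, 2 with the replicate block (Slc3a2, adjusted p = 0.0095, and Slc35e2, 0.0396), 3 with the titles' word as a term, and 0 to 3 when an animal was left out, the 3 without chow 3. The titles' word as a term and the run without chow 3 make the same comparison, keto against chow 1 and 2. The heavy median ran from 0.207 to 0.487 and the light median from 0.0897 to 0.366 across leave-outs, and the light median was 0.44 with limma-voom. Replicate numbers shared by chow and keto animals did not pair them (r of -0.0541 to 0.0382), so the block is only an alternative. The filter was first grouped by condition and pool and later by condition, so the choice between them came after data had been seen. In heavy over light the first grouping tested 11701 genes. It called 16, 19, 35 and 20 genes in place of 24, 19, 36 and 20 for chow, keto, all conditions and the diet difference. For keto over chow heavy it called 6 in place of 0. No member was called with it. The causes were not tested. Low counts per gene limit precision.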
